A study of Arabidopsis thaliana with 3 samples.

Results

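Histone deacetylase 6 (HDA6) removes acetyl groups from histones, and in Arabidopsis thaliana it is known for keeping transposons, repeats and transgenes silent together with DNA methylation. Pericentromeres, the stretches on either side of a centromere, are mostly heterochromatin filled with transposons, but protein-coding genes are scattered among them. The HDA6-GFP ChIP-seq regions described here are those whose midpoint fell inside the body of such a gene. Pericentromeres were taken as 3 Mb on either side of 15, 3.6, 14, 4 and 11.7 Mb on chromosomes 1 to 5, and chromosome 2 from 3 to 3.6 Mb, where the reference holds a large mitochondrial insertion, was left out. The rule found 386 regions of the 7547 in the deposited ChIP list (5.11%), and of the 5686 pericentromeric regions outside the insertion they made up 6.79% (95% Wilson interval 6.16 to 7.47%). The member farthest from its centromere midpoint lay 2.98 Mb away, and the nearest region in a gene beyond the limit 3.004 Mb. The members lay in 322 genes, called host genes below.

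The ChIP samples came from Col-0 seedlings aged 14 days, grown in long days at a constant temperature, that express HDA6 fused to green fluorescent protein from the HDA6 promoter (HDA6pro::HDA6:GFP), and an antibody against GFP was used. There were 2 ChIP samples and 1 input sample of the same transgenic material, and DNA of at least 5 immunoprecipitations was pooled before a library was made. Whether the plants also carry an hda6 mutation, and whether the line is 1 insertion event, is not stated in the labels. ChIP from plants without the fusion was not analysed here. The deposited lists give positions on the TAIR10 build and no value per region, and neither separates the replicates, so there is no replicate error and no test between groups was possible. Wilson intervals and the intervals of medians cover counting error only and treat regions and genes as independent, which neighbours are not. Read depth is unknown.

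Pericentromeric protein-coding genes held a region more often than genes of the chromosome arms. A region midpoint lay in the body of 322 of 3086 pericentromeric genes (10.4%, Wilson interval 9.40 to 11.6%), against 4.55% of the 24247 arm genes and 5.25% of all 27444 nuclear protein-coding genes. Per Mb of protein-coding gene body there were 60.2 regions in the pericentromeres and 20.3 in the arms. Annotated pseudogenes of the pericentromeres, many of which are transposon genes in RefSeq annotation of this species, held 363.5 regions per Mb of body, so the protein-coding genes stood between the pseudogenes around them and the genes of the arms. Chromosome 2 had the highest share of host genes, 89 of 597 (14.9%, 12.3 to 18.0%). Chromosomes 3 and 4 followed with 57 of 538 (10.6%) and 74 of 723 (10.2%), and chromosomes 1 and 5 came last with 53 of 633 (8.37%, 6.46 to 10.8%) and 49 of 595 (8.24%, 6.29 to 10.7%). The intervals of chromosome 2 did not overlap those of chromosomes 1 and 5, but they did overlap those of chromosomes 3 and 4.

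The share of genes with a region fell with distance from the centromere, while the share of regions that lay in genes rose. Within 0.5 Mb of a centromere midpoint, 29 of 89 genes held a region (32.6%, 23.7 to 42.9%). The share was 27.4% (55 of 201 genes) at 0.5 to 1 Mb, 14.2% (55 of 387) at 1 to 1.5 Mb, 11.2% (62 of 556) at 1.5 to 2 Mb and 7.11% (58 of 816) at 2 to 2.5 Mb. At 2.5 to 3 Mb it was 6.08% (63 of 1037, 4.78 to 7.70%). The arms had 4.55%, a share given here without an interval, so whether the outermost step is separate from them was not tested. Per Mb of gene body the members numbered 221 in the innermost 0.5 Mb and 29.0 in the outermost. Of all regions in the same steps, the part inside genes went the other way, with 37 of 1920 (1.93%) in the innermost step and 66 of 225 (29.3%) in the outermost. The number of host genes per step stayed between 29 and 63, because genes are few near the centromere and many farther out.

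**Figure D1:**
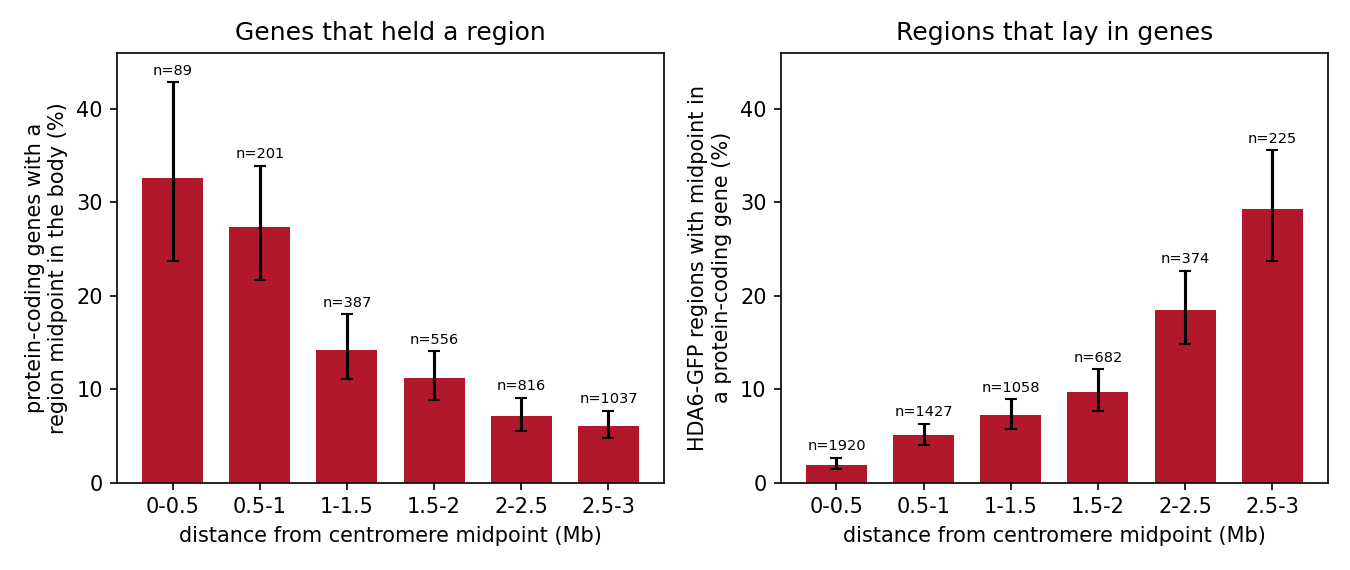
Distance from the centromere midpoint in steps of 0.5 Mb, pooled over 5 chromosomes. Left, percentage of protein-coding genes with a region midpoint in the body, which is 32.6% in the innermost step and 6.08% in the outermost. Right, percentage of HDA6-GFP regions that lay in such a gene, 1.93% and 29.3% in the same steps. Bars show shares, error bars 95% Wilson intervals, and n the genes (left) or regions (right).

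The share fell with distance on each chromosome, but the size of the fall differed, and on chromosome 1 all intervals overlapped. In the innermost Mb on either side, 31 of 75 genes of chromosome 2 (41.3%, 30.9 to 52.6%) and 20 of 48 genes of chromosome 4 (41.7%, 28.8 to 55.7%) held a region. Chromosome 3 had 18 of 70 (25.7%), chromosome 5 10 of 57 (17.5%) and chromosome 1 5 of 40 (12.5%, 5.46 to 26.1%). Farther out, chromosome 1 had 11.1% at 1 to 2 Mb (7.34 to 16.3%) and 6.70% at 2 to 3 Mb. At 2 to 3 Mb the 5 chromosomes lay between 4.95% on chromosome 3 and 9.40% on chromosome 2, with intervals that overlapped.

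Members were short, and their width lay between that of regions in arm genes and that of regions in pericentromeric pseudogenes. Their median width was 319 bp (95% interval of the median 305 to 331 bp), against 294 bp (290 to 297 bp) for 1177 regions in arm genes and 356 bp (351 to 361 bp) for 2973 regions in pericentromeric pseudogenes. The shortest member measured 190 bp and the widest 10264 bp. Over 500 bp wide were 11.4% of members (8.60 to 14.96%), 6.37% of the arm gene regions (5.11 to 7.91%) and 22.1% of the pseudogene regions (20.7 to 23.7%). Input intervals over the 3 kinds of region were of like width, with a median widest interval of 1254 bp at members, 1365 bp at arm gene regions and 1246 bp at pseudogene regions. Input intervals covered between 75.3% and 100% of each member, and 63.2% of members completely.

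**Figure D2:**
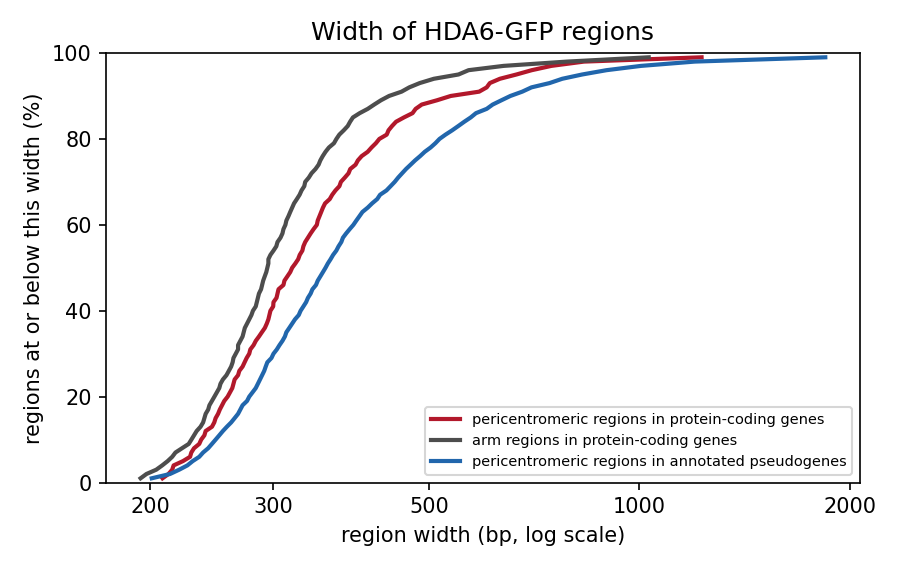
Cumulative share of regions (y, percent) by width (x, bp, log scale, 1st to 99th percentile) for regions in pericentromeric protein-coding genes (red), in arm protein-coding genes (grey) and in pericentromeric annotated pseudogenes (blue). The red curve, with a median of 319 bp, runs between the grey one (294 bp) and the blue one (356 bp).

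Members lay in less crowded surroundings than other pericentromeric regions and in more crowded ones than regions of arm genes. The gap to the next region had a median of 2390 bp at members (1521 to 3110 bp), 15322 bp at arm gene regions and 479 bp at pericentromeric pseudogene regions. No other region midpoint lay within 10 kb of 23.6% of members, against 60.2% of arm gene regions and 2.49% of pseudogene regions. A pseudogene was overlapped by 4 members (1.04%), whose midpoints by the rule lie in protein-coding genes. The share was 1.27% of arm gene regions and 60.2% of all other pericentromeric regions. A pseudogene lay within 10 kb of 83.2% of members, 23.5% of arm gene regions and 93.2% of all other pericentromeric regions.

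Regions around a gene and regions in its body went together. Among pericentromeric genes with 6 or more other regions in the 10 kb on either side of the body, 66 of 178 were hosts (37.1%, 30.3 to 44.4%). The share was 16.3% with 3 to 5 such regions, 8.91% with 1 or 2, and 6.58% (93 of 1413, 5.40 to 7.996%) with none. The last of these still lay above the 4.55% of arm genes. Hosts lay nearer to annotated pseudogenes than genes with no region over the body did, with a median distance of 2651 bp (2202 to 3414 bp) against 5214 bp (4827 to 5628 bp). Distance from the centromere, crowding and closeness to pseudogenes vary together along the chromosome, and their separate parts were not tested.

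Within a gene body the members were spread over the whole length. Counting the 8 members that lie in 2 overlapping genes once for each gene, there were 394 pairs of region and gene. The midpoint lay between 0.25 and 0.75 of the gene length in 48.0% of pairs (43.1 to 52.9%), against 56.0% (53.1 to 58.7%) of 1210 pairs in the arms. In genes of at least 1000 bp the shares were 45.3% (39.7 to 51.0%) in the pericentromeres and 53.1% (50.1 to 56.0%) in the arms, and these intervals overlapped. The median distance from the midpoint to the nearer gene end was 351 bp in pericentromeric genes and 540 bp in arm genes, whose median length per pair was 1722 bp and 2408 bp. The whole region lay inside the gene in 73.9% of pairs, against 90.5% in the arms, so pericentromeric regions crossed a gene border more often. The gene table gives no strand and no exons, so gene starts cannot be told from gene ends here, nor exons from introns.

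**Figure D3:**
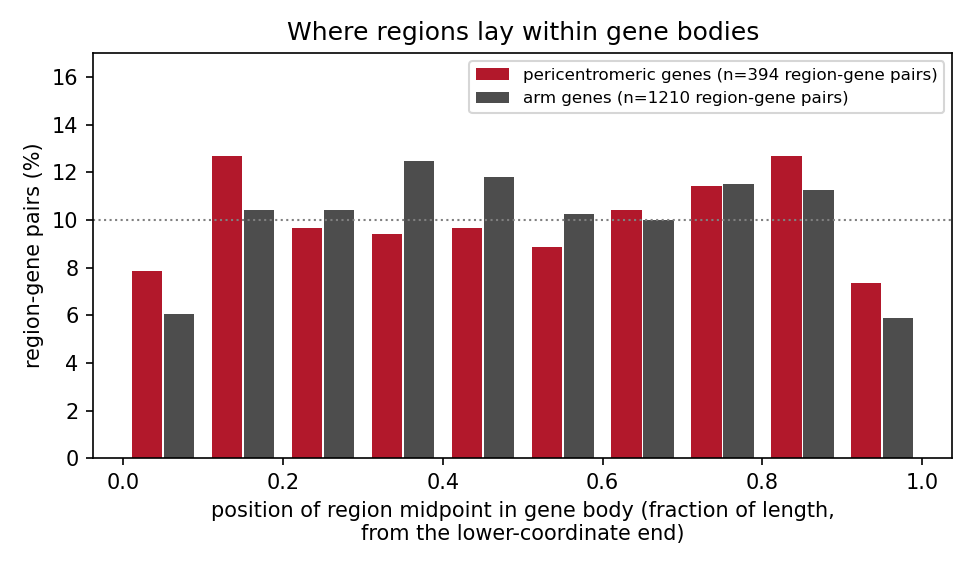
Share of region-gene pairs (y, percent) by the position of the region midpoint in the gene body (x, fraction of gene length from the end with the lower coordinate, in steps of 0.1) for pericentromeric (red, n = 394) and arm genes (grey, n = 1210). The dotted line marks 10%, an even spread; in pericentromeric genes the 10 steps held between 7.36% and 12.7% of pairs.

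Most hosts were little-annotated genes. Of the 322, 257 (79.8%, 75.1 to 83.8%) have only a locus name in RefSeq, against 70.9% (69.1 to 72.5%) of the 2736 pericentromeric genes with no region over the body. Loci with neither a symbol nor a synonym made up 43.2% of hosts and 30.3% of those other genes. Genes with their own symbol were hosts in 65 of 862 cases (7.54%, 5.96 to 9.50%), and genes with only a locus name in 257 of 2224 (11.6%, 10.3 to 13.0%). Per Mb of gene body there were 28.9 regions in genes with a symbol and 79.1 in genes with a locus name only. At 2 to 3 Mb from the centromere the shares were nearly equal, at 6.56% (37 of 564) and 6.52% (84 of 1289). At 1 to 2 Mb they were 8.46% (22 of 260, 5.65 to 12.5%) and 13.9% (95 of 683, 11.5 to 16.7%), and within 1 Mb 15.8% (6 of 38, 7.44 to 30.4%) and 31.0% (78 of 252, 25.6 to 36.9%), with intervals that overlapped in both steps.

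**Figure D4:**
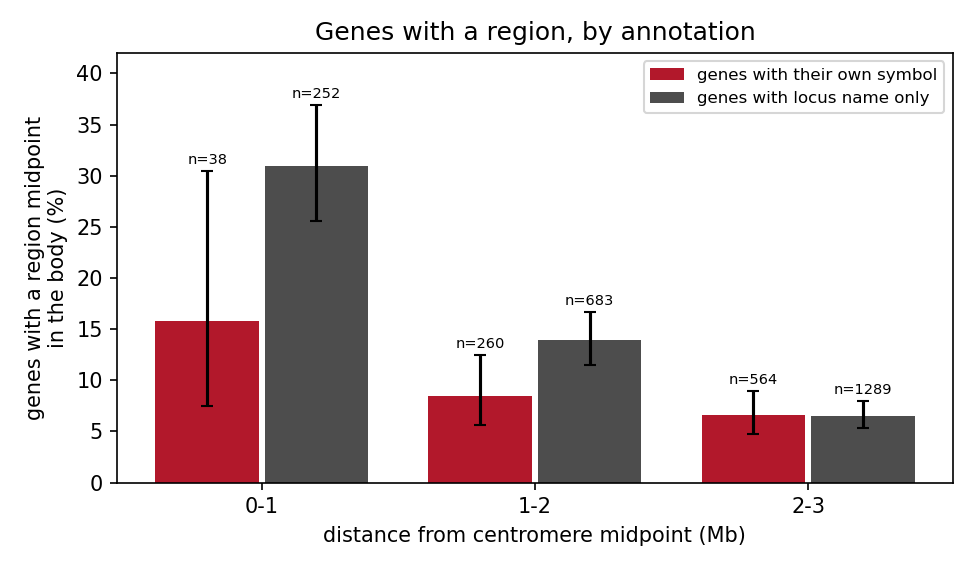
Percentage of pericentromeric protein-coding genes with a region midpoint in the body (y) by distance from the centromere midpoint (x, Mb), for genes with their own symbol (red) and genes with a locus name only (grey). Error bars are 95% Wilson intervals and n is the number of genes; both kinds stand at about the same height at 2 to 3 Mb, 6.56% and 6.52%.

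Regions in the 2 kinds of host also looked different. For regions, the values here are again over region-gene pairs, so a region in 2 overlapping genes counts once for each gene. In hosts with a symbol the median width was 295 bp (269 to 319 bp), the next region was 5787 bp away in the median, and regions covered a median of 12.2% of the body. In hosts with only a locus name the median width was 330 bp (311 to 345 bp), the next region lay 1441 bp away and regions covered 30.4% of the body. The intervals of the median width overlapped. Another region lay within 1 kb in 5 of 70 pairs with a gene that has a symbol (7.14%) and in 140 of 324 other pairs (43.2%). No other region lay within 10 kb in 32.9% (23.0 to 44.5%) and 22.5% (18.3 to 27.4%) of these pairs, and the intervals overlapped. Hosts with a symbol lay farther from the centromere midpoint, at a median of 2.16 Mb against 1.53 Mb, where regions are sparser, and the part of distance in these differences was not tested. The hosts with a symbol were longer, with a median of 2498 bp against 1314 bp, which by itself lowers the share of the body that 1 region covers.

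The 3 widest members each covered a whole gene close to a centromere midpoint. The widest, at 3617928 to 3628191 on chromosome 2, was 10264 bp wide and covered all 8403 bp of AT2G08986. Its neighbour at 3614827 to 3617859 (3033 bp) covered all of AT2G07981. Both lie just past the end of the left-out stretch of chromosome 2, and the widest input intervals over them measured 8613 bp and 2942 bp. On chromosome 1, a region of 4239 bp at 15081824 to 15086062 covered all of AT1G40104, and the widest input interval there measured 5996 bp. These 3 were the only members over 1865 bp. The next was a region of 1865 bp in AT4G08760, followed by one of 1114 bp in AT4G08380 and one of 978 bp in MEE38, a gene named for arrest of the embryo after a maternal defect. The remaining 4 of the 10 widest, between 775 and 938 bp, lay in AT3G43150, AT2G09840, AT3G43148 and AT4G06479.

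In 25 hosts regions covered at least 80% of the body, and 6 were covered completely. These were mainly short genes, with a median of 570 bp and 17 of 25 under 1000 bp, and 1 of them had a symbol, CYP79A4P. Examples of short and fully covered genes are AT4G06639 (507 bp), AT2G12205 (224 bp) and AT2G10557 (174 bp). Of all hosts, 78 were at least 50% covered, and the median host was covered for 26.3% of its body.

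A region stood alone in 276 hosts, 29 hosts had 2 members and 17 had 3 or more. AT3G43148, on chromosome 3 at 1.14 Mb from the centromere midpoint, had the most. Its 7 members, with widths of 236, 372, 361, 378, 263, 351 and 802 bp between 15139883 and 15143134, together covered 84.4% of its 3129 bp. The neighbouring gene AT3G43150 held a region of 938 bp at 15143814 to 15144751. MEE38, farther along the chromosome, had 2 members, of 978 bp (from 15166295) and 637 bp. AT4G05612 had 6 members, between 290 and 662 bp wide, over 53.4% of its 4651 bp. AT4G03830 had 4 members over 79.1% of its body, and AT4G06688, at 0.0774 Mb from the centromere midpoint of chromosome 4, had 4 over 50.3%. The other 13, with 3 members each, were AT2G06570, AT2G06845, AT2G14000, AT3G31950, AT4G02660, AT4G06526, AT4G08097, AT4G08760, AT5G28345, AT5G28463, AT5G28823, AT5G32590 and SAP. Of the 17 genes, chromosome 4 carries 7, chromosome 5 carries 5, and chromosomes 2 and 3 carry 3 and 2, while chromosome 1 carries 0. SAP (STERILE APETALA, a regulator of flower and organ growth) is the one with a symbol, with regions of 246 and 327 bp that lie 17 bp apart and one of 237 bp toward its other end, together 16.9% of its 4782 bp.

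The auxin response factors (ARFs), transcription factors that bind the promoters of auxin-regulated genes, formed the largest family among hosts with a symbol. Of 23 ARF genes, 9 lie in the pericentromeres, and 6 of these were hosts: ARF14, ARF15, ARF20, ARF21, ARF22 and ARF23, all on chromosome 1. ARF12 and ARF13, also on chromosome 1, and ARF8 on chromosome 5 had no region, nor did any of the 14 ARF genes of the arms. This family was singled out after its values were seen, and its count is a description. The shares to read it against are the 10.4% of pericentromeric and 4.55% of arm genes given above, and the 7.54% of pericentromeric genes with their own symbol. Each of the 6 genes held 1 region, of 302 to 395 bp.

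In all 6 ARF genes the region took the same place relative to a gene end. In ARF22 it ran from 12556172 to 12556496, with its midpoint 329.5 bp from the nearer gene end. In ARF21 it ran from 12577855 to 12578179 (295.5 bp from the end) and in ARF14 from 13108766 to 13109160 (329.5 bp). In these 3 genes the nearer end is the one with the lower coordinate.

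In ARF20 (12930080 to 12930381, 293 bp from the end), ARF15 (13085369 to 13085701, 295.5 bp) and ARF23 (16673451 to 16673818, 318 bp) it is the one with the higher coordinate. The nearer border of the region lay 129 to 167 bp inside the gene and the farther border 444 to 527 bp inside it, also in ARF23, whose annotated length of 1371 bp is less than that of the other 5 (3012 to 3221 bp). A distance between 293 and 329.5 bp was found in 25 of all 394 pairs (6.35%), these 6 included, and the middle 50% of pairs had distances between 185 and 644 bp. The 6 genes are close relatives of each other. How reads that match several copies were treated is not given in the sources used here, so the regions cannot be counted as independent of each other. At ARF21 the widest input interval measured 2185 bp, among the widest 5% of input intervals; at the other 5 genes it was between 215 and 1183 bp.

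**Figure D5:**
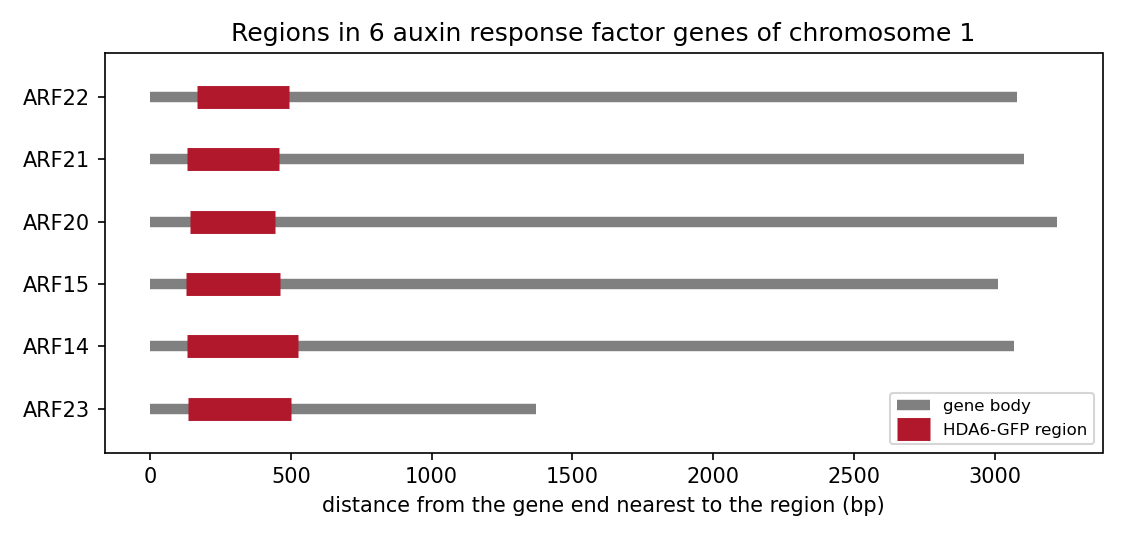
The 6 auxin response factor genes with a region, drawn from the gene end nearest to the region (x, bp; 0 is that gene end). Grey bars are gene bodies and red bars HDA6-GFP regions; every region begins 129 to 167 bp and ends 444 to 527 bp inside the gene.

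Among the other hosts, ILL6, of the amidohydrolase family that splits hormone conjugates, had a region of 263 bp, and AIR3, a subtilisin-like protease named for its induction by auxin, had one of 214 bp.

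The hosts with a symbol were sorted by role by hand, after they were known, so the groups below have no background share. Besides the ARF genes, 16 were sorted under transcription, chromatin and RNA metabolism, with regulators of development included. They had regions of 237 to 548 bp (median 302 bp) that covered 4.81 to 42.2% of the body. CHR38, better known as CLASSY1, a chromatin remodeller of the RNA-directed DNA methylation pathway, had a region of 314 bp at 14756087 to 14756400 on chromosome 3. DAYSLEEPER, a protein derived from a hAT transposase, had one of 305 bp at 14323483 to 14323787. LD, of the autonomous flowering pathway, had one of 260 bp, YY1, a zinc-finger transcription factor, one of 269 bp, and GTA2, an SPT5-type transcription elongation factor, one of 349 bp. All of these stood singly in their gene. HEN2, an RNA helicase of the nuclear exosome (342 bp), ECT7, of the family that reads methylated adenosine in RNA (263 bp), and FAS4 (288 bp) also had 1 region each. Regulators of development completed the group: DOF6 with the widest region of the group (548 bp, 42.2% of the body), LSH1 (438 bp), SRS8 (413 bp), TT1 (317 bp), MYB121 (298 bp), OFP9 (251 bp), HB21 (247 bp) and SAP, described above.

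The 11 hosts of the cell wall and surface had regions of 215 to 672 bp (median 274 bp). EXT13, an extensin of the cell wall, had the widest, at 13434373 to 13435044 on chromosome 5, over 52.7% of the gene. Both callose synthases among the hosts are long genes of which the region covered little, GSL05 (423 bp, 6.45%) and CALS5 (282 bp, 2.34%). GRP9, a glycine-rich protein, had a region of 397 bp, and the arabinogalactan proteins AGP5 and AGP10 had regions of 250 and 215 bp. The xyloglucan enzymes XT2 and XTH10 had regions of 260 and 264 bp, the xylogen protein XYP2 one of 274 bp, and the lipid transfer proteins LTP and LTPG2 ones of 235 and 275 bp.

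Among 15 hosts of metabolism, regions measured 194 to 522 bp. OPR3, an enzyme of jasmonate synthesis, had a region of 396 bp, AGT, of photorespiration, one of 213 bp, and AT5MAT, which adds malonyl groups to anthocyanins, one of 522 bp. SCPL43, a serine carboxypeptidase-like protein, had 2 members (226 and 247 bp), and its relative scpl38 had 1 of 305 bp. Neighbouring genes could both be hosts, as were CYP716A2, a cytochrome P450 (294 bp), and PEN3, here the triterpene synthase of that name (293 bp). So were CYP79A3P (248 bp) and CYP79A4P (432 bp), whose names mark them as P450 pseudogenes although RefSeq classes them as protein-coding. EMB1075, a serine decarboxylase, had the narrowest region (194 bp), and FTM1 (375 bp), LpxD1 (355 bp), SDR4 (327 bp), ATA1 (327 bp) and EMB3003 (210 bp) had 1 each.

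Of 4 hosts of defence and stress, PR1, a marker gene of the salicylic acid response, had a region of 319 bp at 6242094 to 6242412 on chromosome 2 (35.4% of the gene), 3075 bp from the region in its neighbour XTH10. AIG1, induced by a bacterial avirulence gene, had one of 335 bp, RD22, a drought-induced gene, one of 260 bp, and emb1579, also named RSA1 for short roots in salt, one of 428 bp.

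Of 5 hosts of transport, import and folding, the chloroplast import receptor TOC159 had a region of 238 bp and the chaperone BIP1 one of 234 bp. The ureide permease UPS2 (267 bp), the sulfate transporter SULTR1;1 (296 bp) and the cation exchanger CHX24 (339 bp) made up the rest. In signalling and protein turnover, EOL1, a relative of the ethylene regulator ETO1, had 2 members (303 and 286 bp). PRK1, a pollen receptor kinase (235 bp), RALFL27, of the RALF peptides (228 bp), and VFB3, an F-box protein (277 bp), had 1 each. AT7SL-1, with a region of 258 bp, is classed as protein-coding although its synonym names the 7SL RNA. A further 6 hosts with only a locus name as symbol have another name among their synonyms. They include SAUR39 (AT3G43120, small auxin upregulated RNA, 229 bp), bZIP33 (AT2G12900, 446 bp) and EFM (AT2G03500, an early-flowering MYB protein, 357 bp). The others are AT2G05830 (304 bp), RbohJ (AT3G45810, respiratory burst oxidase, 477 bp) and RDO5 (AT4G11040, reduced dormancy, 311 bp). Apart from clone names, the synonyms of AT2G05830 are MTI1 and 5-methylthioribose kinase 1. Which of these names describes its enzyme was not checked.

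Gene families picked out by words in symbols and synonyms gave few hosts. Of all pericentromeric protein-coding genes 10.4% were hosts, and of those with their own symbol 7.54%. Genes with the word kinase in a name had 2 of 65, PRK1 and AT2G05830. The latter is counted through a synonym that names a kinase of methylthioribose, a small molecule, and is also listed as MTI1. Transporters had 3 of 42, the cysteine-rich and defensin-like proteins 0 of 33 and the cytochrome P450 genes 3 of 18, of which 2 are the named pseudogenes. The ubiquitin and SUMO group had 0 of 9, ribosomal proteins 0 of 6, F-box proteins 1 of 4 (VFB3), disease resistance genes 0 of 3 and pentatricopeptide or tetratricopeptide repeat proteins 0 of 2. Genes named for a transposase or transposon gave 1 of 2 (DAYSLEEPER), genes with zinc finger in a name 1 of 1 (HB21), with helicase in a name 0 of 1 and with unknown function in a name 0 of 1. The table holds no protein descriptions, so members whose names do not spell out the family, such as YY1 and HEN2, are missing from these counts.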

How the data were processed

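Each list, as deposited by the authors, holds a chromosome, a start and an end in bp per line, and nothing else, so no score, count or depth per region exists here. Bowtie, SICER and the TAIR10 build are named in the submitters' processing notes. Their versions and settings, and whether replicates were pooled, are unstated in the labels; each list was taken as pooled over its group. Starts are printed counted from 1. Genes came from the RefSeq table of assembly TAIR10.1, used for names, classes and which genes a region touches; it has no strand, exons or sequence, so promoters, motifs, exons and sequences were not used here. No gene coordinate is printed. A region was a member if its midpoint lay in a protein-coding gene body by the rule given above. A gene belonged to a pericentromere by its own midpoint, and the 10-kb surroundings of a gene left out regions that touch its body. Hosts were named if they held 1 of the 10 widest members, had at least 3 members or had a symbol. Of the hosts at least 80% covered only examples were named. Hosts with a locus name and another name, not a clone name, among their synonyms were named as well. A rule on promoter windows could not be applied without strand. The members, lists and comparisons were chosen with earlier results of these data known, and roles of named hosts were sorted by hand after the hosts were known. Shares carry 95% Wilson intervals (scipy 1.17.1) and medians an interval from binomial order statistics. The code for the rule was checked on simulated regions planted in non-overlapping genes of at least 1000 bp, away from their ends. Shorter genes, overlapping genes and regions near gene ends were not part of that check. Python 3.11.15, pandas 2.3.3 and matplotlib 3.10.9 were used.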

Additional observations from a re-analysis of the deposited data

How the results depend on the processing

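No result has a replicate check, since neither list separates the replicates and each was taken as pooled. No paired analysis was possible because the lists carry no replicate numbers. Of 38 recomputed values 26 stayed within 1.5 times the count, or within the interval of the median or share. All 38 are values of the pericentromeres. The share of arm genes was not recomputed, so the shares below have no arm value under the same setting. With 2 Mb from the centromere there were 251 members in 201 genes (16.3% of genes there), and with 4 Mb 488 host genes (9.18%). Regions wider than the nuclear median of 337 bp gave 165 members in 147 genes (4.76%) with a median of 420 bp. Requiring the whole region inside the gene gave 8.004% of genes as hosts and put 57.4% of midpoints between 0.25 and 0.75 of gene length; that rule takes away regions near gene borders. Leaving out regions that touch one of the widest 5% of input intervals (over 2039 bp) reduced the 386 members to 291 and the 322 host genes to 256. With that setting 8.30% of genes were hosts. Leaving out chromosome 2 up to 3.7 Mb was an alternative chosen after seeing the data. It removed 4 members, among them the widest of all (10264 bp) and the one of 3033 bp next to it, and left 319 host genes. Read depth is unknown and limits every statement about genes without a region.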

Other observations

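Of 3080 pairs of consecutive pericentromeric protein-coding genes, 77 consisted of 2 hosts. In 9 of them the genes overlap each other and can share a region, in 39 they do not overlap and lie at most 10 kb apart, and in 29 they are farther apart, up to 200967 bp, so that consecutive does not always mean close. In 5 of the pairs both genes have a symbol: AGP5 and ARF20 on chromosome 1, PR1 and XTH10 on chromosome 2, XT2 and TOC159 on chromosome 4, and CYP79A3P with CYP79A4P and CYP716A2 with PEN3 on chromosome 5. The closest of these are XT2 and TOC159, whose bodies are 816 bp apart, with a separate region in each. These pairs were noted after the values were seen and no test was made.

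The stretch of chromosome 2 that was left out held 24 further regions with a midpoint in a protein-coding gene, in 17 genes, with widths of 263 to 21189 bp and a median of 448 bp, against 319 bp for the members.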
